A study of Oryza sativa Japonica Group with 9 samples.

Results

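Transcripts of 5 rice genes grouped as photosynthetic and light-regulated (CAB2R, PETE, FNR, LIR1 and CHL1) were followed from the egg cell to the early zygote. The genes were chosen by symbol or synonym in the annotation of the array, among probe sets that the annotation pairs with a single gene. They have 7 probe sets among the 57194 rice probe sets of the array, and 5 of the 17905 genes that the annotation names. CAB2R (LOC4324599) and FNR (LOC4342399) are each read by 2 probe sets, called brighter and dimmer here, and PETE (LOC4339833), LIR1 (LOC4326442) and CHL1 (LOC4334537) by 1 each. FNR is a synonym of 3 genes on the array, and the one meant here is the gene of probe set Os.1.1.S1_s_at. This gene is on chromosome 7 and is not LFNR1, a leaf isozyme, so its part in photosynthesis is not known here.

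In green tissue, light-harvesting proteins pass excitation energy to the photosystems, and electrons then move through plastocyanin and ferredoxin to ferredoxin-NADP reductase, which makes NADPH. Many of the nuclear genes for these proteins are switched on by light together with genes of chlorophyll synthesis. Egg cells of flowering plants lie deep in the ovule and hold proplastids, which lack the thylakoid membranes of a chloroplast.

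The samples were egg cells before pollination (0 hours after pollination, hap), fertilized egg cells at about 1 hap and zygotes at about 3 hap, with 3 biological replicates each on 9 Affymetrix rice arrays. All came from wild-type plants of Oryza sativa Japonica, cultivar Katy, grown in a greenhouse, and stage is the only factor that the labels give. Each sample was a pool of roughly 100 cells freed from ovules without enzymes (2.5 ng of RNA, taken as 25 pg a cell), amplified in 2 cycles. The labels' description conflicts with their titles, since it speaks of seedlings on egg arrays, pollen on fertilized egg arrays and sperm cells on zygote arrays; titles, characteristics and series text set the groups here. The labels do not say which plants the replicates came from, so p-values measure the spread between these samples, and 3 arrays a stage limit the precision of every value. In such pools, fewer cells with a transcript and less of it per cell cannot be told apart.

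Values are linear MAS5 signals, scaled by the authors to a common mean on each array, and changes are differences of log2(signal + 15). The table holds no detection calls, so the 64 probe sets for bacterial and reporter sequences served as the background of each array. Their median signal was 5.64 to 9.11 on egg arrays, 6.47 to 27.8 on fertilized egg arrays and 14.1 to 55.5 on zygote arrays. Zygote replicate 2 stood apart: over all rice probe sets its correlations with the others had a median of 0.69, against 0.87 to 0.93 for the remaining 8 arrays. Zygote replicate 1 was closer to the eggs (0.92 to 0.93) than to zygote replicate 2 (0.69) or zygote replicate 3 (0.86). The mean log2 ratio of 3' to 5' probe sets of 3 housekeeping controls was 5.996 to 6.46 on egg arrays, 6.32 to 8.62 on fertilized egg arrays and 5.93 to 8.15 on zygote arrays. The mean ratio of polyadenylated spike controls to hybridization controls was 0.234 to 0.579 on fertilized egg arrays and 0.224 to 1.09 on zygote arrays, against 0.0522 to 0.0866 on egg arrays, so this technical measure set all 6 later arrays apart from the eggs.

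Some markers of other cell types lay above the reporters. Of a leaf list, 2 of 12 names were matched (rca and the Rubisco small subunit), with a summed signal of 417 to 960 on egg arrays, 943 to 1237 on fertilized egg arrays and 478 to 728 on zygote arrays. Of 8 carpel, ovule and nucellus markers, all 8 were matched and summed to 35255 to 54854 on egg, 33796 to 40772 on fertilized egg and 25291 to 43029 on zygote arrays, and 7 of them lay above every reporter on all egg arrays. For anther and pollen, 9 of 10 names were matched, summing to 5996 to 6700 on egg, 9022 to 10788 on fertilized egg and 5916 to 8243 on zygote arrays. Only 3 of these 9 (MTR1, GAMYB and MSP1) lay above every reporter on all egg arrays, and TDR and RTS read at most 5.15 and 10.5 there. For endosperm, 7 of 10 names were matched, summing to 11267 to 20057, 16459 to 43611 and 12187 to 25247 at the same stages in order, of which GBSS-I made up the most; 5 of the 7 lay above every reporter on all egg arrays, and GLUA1 read at most 1.07 there. None of the 7 names on the egg and female gametophyte list was matched, so the labelled cell type was not checked against markers of its own. The part of other cell types in the values below was not tested.

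CAB2R, an antenna protein that binds chlorophylls a and b, gave high signals at all 3 stages, with both probe sets above every reporter on 8 of 9 arrays. Its brighter probe set read 9980, 16005 and 16657 in the 3 egg samples, 13790, 10066 and 11449 in fertilized eggs and 9624, 1201 and 10557 in zygotes. The dimmer one read 1755, 3502 and 3111 in eggs, 2564, 1783 and 1646 in fertilized eggs and 1741, 289 and 1228 in zygotes. On both, zygote replicate 2 was the lowest of the 9 arrays, at 11.9% of the mean of the other zygotes on the brighter probe set and 19.5% on the dimmer one. In that replicate the brighter probe set lay above 63 and the dimmer one above 47 of the 64 reporters, so the background limits these values. The stages overlapped on the brighter probe set, while on the dimmer one every zygote array lay below every egg array, if barely for zygote replicate 1 and egg replicate 1. Such a separation was seen for 8.96% of all probe sets tested.

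The mean signal of the brighter CAB2R probe set was 14214 ± 3681 (SD, n = 3 at each stage) in eggs, 11768 ± 1883 in fertilized eggs and 7127 ± 5154 in zygotes. Zygotes differed from eggs by -1.48 ± 0.64 (SE) on the log2 scale with limma's moderated test (95% interval -2.86 to -0.09, adjusted p = 0.290), and by -1.62 ± 0.55 on the dimmer probe set (adjusted p = 0.244). Without zygote replicate 2 these differences were -0.46 ± 0.29 (adjusted p = 0.496) and -0.86 ± 0.36 (adjusted p = 0.351). Without zygote replicate 1 they were -1.95 ± 0.67 (adjusted p = 0.0960) and -2.13 ± 0.54 (adjusted p = 0.0553), and without zygote replicate 3 they were -2.02 and -1.88 (adjusted p = 0.265 for both). Between zygotes and fertilized eggs the difference was -1.23 ± 0.64 on the brighter probe set (adjusted p = 0.522), and -0.21 without that replicate. Fertilized eggs differed from eggs by -0.25 ± 0.64 and -0.45 ± 0.55 on the brighter and dimmer probe sets (adjusted p = 0.934 and 0.846). Neither probe set thus passed the test in any contrast.

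PETE encodes plastocyanin, the copper protein that carries electrons from the cytochrome b6f complex to photosystem I. Its signal was 1962, 2727 and 4000 in eggs, 4800, 4007 and 2410 in fertilized eggs and 3361, 889 and 2299 in zygotes. The stages overlapped, and zygote replicate 2 was again the lowest array, at 31.4% of the mean of the other zygotes. Fertilized eggs differed from eggs by 0.37 ± 0.47 on the log2 scale (95% interval -0.65 to 1.39, limma adjusted p = 0.850). Zygotes differed from fertilized eggs by -0.91 ± 0.47 (adjusted p = 0.519), or by -0.37 ± 0.38 without zygote replicate 2. For zygotes against eggs the difference was -0.54 ± 0.47 (adjusted p = 0.572), and 0.0016 without that replicate.

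**Figure D1:**
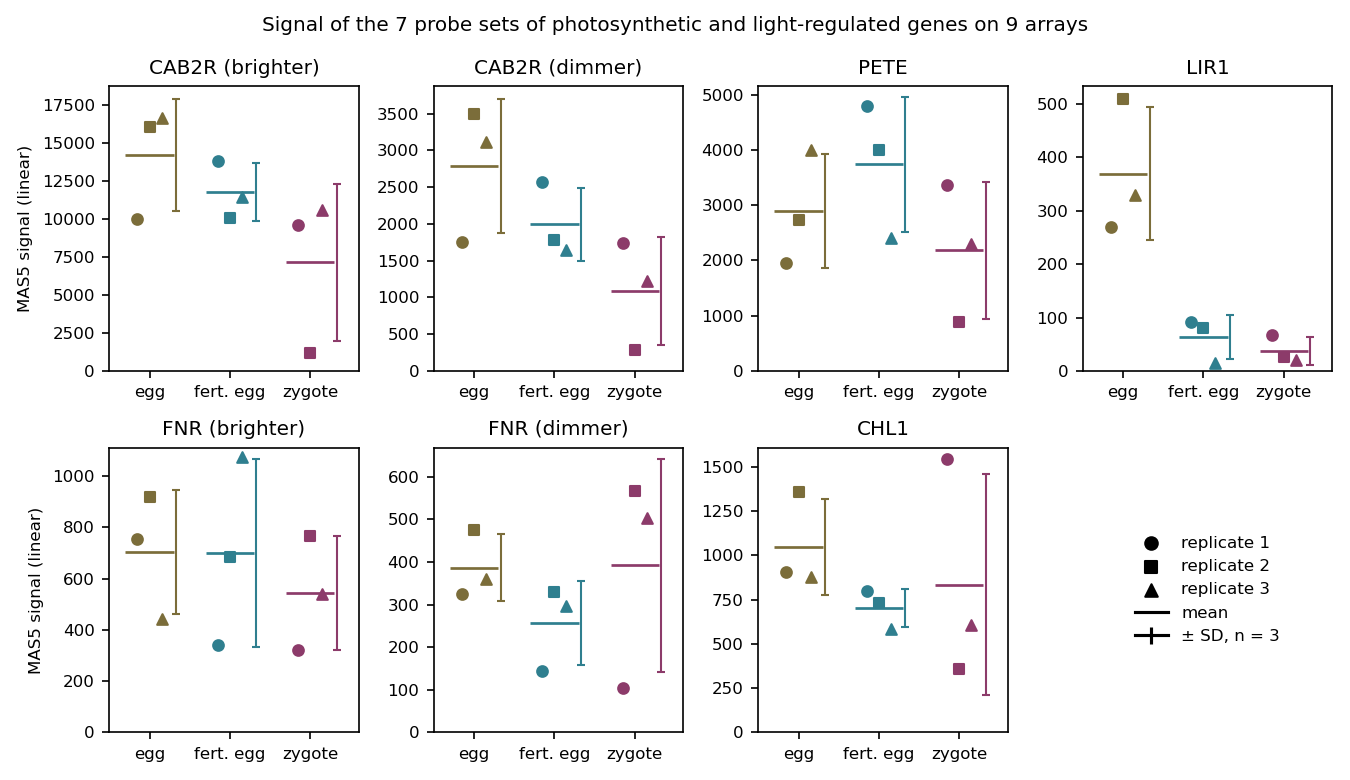
MAS5 signal (linear axes, starting at 0) of the 7 probe sets in the 3 samples of each stage, with the mean and SD (n = 3). LIR1 lay at 269 to 509 in eggs and at or below 91.6 on the 6 later arrays, while zygote replicate 2 lay lowest for both CAB2R probe sets, PETE and CHL1.

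LIR1, the light-induced rice gene 1, gave the widest separation of stages among the 5 genes. Its protein is a small chloroplast protein that helps to hold leaf-type ferredoxin-NADP reductase at the thylakoid membrane, and in leaves its transcript follows light and the circadian clock. The signal was 91.6, 80.9 and 15.5 in fertilized eggs and 67.6, 25.3 and 20.0 in zygotes, against 269, 509 and 330 in eggs. All 6 later arrays lay below all 3 egg arrays, and fertilized eggs overlapped with zygotes. Such a separation, with every later array below every egg array, was seen for 3.71% of all probe sets tested.

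The mean LIR1 signal was 62.7 ± 41.2 in fertilized eggs and 37.6 ± 26.1 in zygotes, against 369 ± 125 in eggs (SD, n = 3 each). The log2 difference was -2.45 ± 0.68 for fertilized eggs against eggs (SE, 95% interval -3.94 to -0.97) and -2.93 ± 0.68 for zygotes against eggs (95% interval -4.41 to -1.45). Neither passed limma's test over all probe sets, with an adjusted p = 0.356 and 0.172 (unadjusted 0.00353 and 0.000985). For zygotes against fertilized eggs it was -0.48 ± 0.68 (adjusted p = 0.828).

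The call on LIR1 depended on how the arrays were weighted. With array quality weights, which let noisier arrays count less, LIR1 fell by 1.98 ± 0.45 in fertilized eggs against eggs (limma adjusted p = 0.0262). In zygotes against eggs it fell by 2.92 ± 0.62 (adjusted p = 0.0342), and its F test over the stages gave an adjusted p = 0.0153. The weights were 3.13, 0.946 and 3.49 for the egg arrays, 1.07, 2.26 and 0.501 for the fertilized egg arrays and 0.427, 0.181 and 1.03 for the zygote arrays. That fit called 4.36% of all probe sets for fertilized eggs against eggs (2.37% as lower), 1.99% for zygotes against eggs (1.17% as lower) and 5.49% by the F test. It called none of the other 6 probe sets of the 5 genes. Without zygote replicate 1, the unweighted difference of LIR1 in zygotes from eggs was -3.31 ± 0.71 (limma adjusted p = 0.0427). That setting called 792 of the 28597 probe sets in this contrast, against 20 with all 9 arrays.

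After pollination LIR1 lay closer to the background of the arrays than in eggs. It lay below the upper quartile of the reporters in fertilized egg replicate 3 and zygote replicates 2 and 3. Those arrays also had the highest mean log2 ratios of 3' to 5' control probe sets, at 8.62, 8.15 and 6.99. The part of that measure in the LIR1 result was not tested. LIR1 was above all 64 reporters on the 3 egg arrays. In fertilized eggs it was above 63, 63 and 25 of the 64 reporters, and in zygotes above 56, 18 and 36. Its ratio to the reporter median was 9.04, 12.5 and 0.559 in fertilized eggs and 4.81, 0.455 and 1.11 in zygotes, against 47.8, 55.9 and 48.3 in eggs. The reporter median was itself higher on some later arrays, at 27.8 in fertilized egg replicate 3 and 55.5 in zygote replicate 2. The ratio of polyadenylated spikes to hybridization controls, higher on every later array than on the eggs, split the arrays as LIR1 did, and its part in the LIR1 result was not tested. The log2 difference followed the offset added before the logarithm. It was -2.83 with an offset of 1 and -1.53 with an offset of 100 for fertilized eggs against eggs, and -3.41 and -1.75 for zygotes against eggs.

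**Figure D2:**
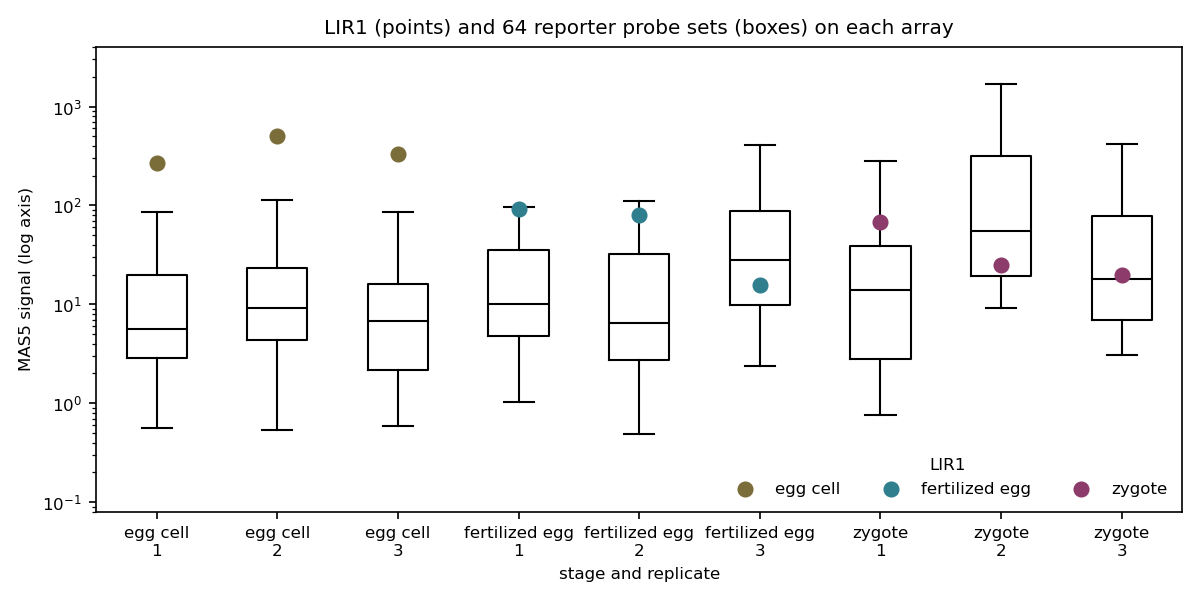
MAS5 signal (log axis) of LIR1 (points) and of the 64 reporter probe sets on each array (box, quartiles with the median; whiskers, lowest and highest value). The egg points lie above every reporter, and the points of fertilized egg replicate 3 and of zygote replicates 2 and 3 lie inside the boxes.

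FNR, here the ferredoxin-NADP reductase whose synonym is shared by other isozymes, showed no difference between stages that passed the test. It is another gene than LFNR1, and whether it works in photosynthesis was not checked. Its brighter probe set read 753, 918 and 442 in eggs, 340, 683 and 1074 in fertilized eggs and 323, 768 and 542 in zygotes. Its dimmer one read 325, 476 and 359 in eggs, 144, 329 and 296 in fertilized eggs and 105, 566 and 504 in zygotes. The stages overlapped on both. Zygote replicate 2 was not low here, at 178% and 186% of the mean of the other zygotes, and it was the highest of the 9 arrays on the dimmer probe set.

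Fertilized eggs differed from eggs by -0.09 ± 0.50 on the brighter FNR probe set (95% interval -1.19 to 1.00, limma adjusted p = 0.970) and by -0.62 ± 0.62 on the dimmer one (adjusted p = 0.805). Zygotes differed from eggs by -0.38 ± 0.50 (adjusted p = 0.721) and -0.26 ± 0.62 (adjusted p = 0.853), and from fertilized eggs by -0.29 ± 0.50 and 0.36 ± 0.62 (adjusted p = 0.858 and 0.856). The sign changed on leaving out single arrays in all but fertilized eggs against eggs on the dimmer probe set and zygotes against eggs on the brighter one. The other genes that carry the synonym, singled out for that name, passed no test either. LFNR1, the leaf isozyme, read 48.1 to 261 over the 9 arrays, below the highest reporter on each, with differences of 0.19 ± 0.65 for fertilized eggs and 0.62 ± 0.65 for zygotes, both against eggs. LOC4334338 read 1639 to 3883, with differences of 0.58 and 0.40 in the same contrasts.

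CHL1 is the D subunit of magnesium chelatase, which puts magnesium into protoporphyrin at the first committed step of chlorophyll synthesis. Its signal was 795, 729 and 584 in fertilized eggs and 1541, 356 and 607 in zygotes, against 907, 1358 and 875 in eggs. Every fertilized egg array lay below every egg array, as for 11.1% of all probe sets tested. The zygotes spanned both, with the highest and the lowest of the 9 arrays among them. Fertilized eggs differed from eggs by -0.55 ± 0.48 (95% interval -1.60 to 0.50, limma adjusted p = 0.773), and zygotes from eggs by -0.55 ± 0.48 (adjusted p = 0.578). The zygote difference from eggs was -1.12 ± 0.41 without zygote replicate 1 (adjusted p = 0.110) and -0.08 without zygote replicate 2. For zygotes against fertilized eggs the estimate was -0.0027 ± 0.48, and 0.47 without zygote replicate 2.

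The other subunits of the chelatase gave low signals. CHL9, the I subunit, read 104, 51.5 and 80.1 in fertilized eggs and 57.4, 268 and 185 in zygotes, against 37.5, 16.6 and 54.5 in eggs. It lay above every reporter on 1 of 9 arrays, and none of its egg or zygote values did, so no size of a difference is given. CHLH, the H subunit, has 2 probe sets whose zygote differences from eggs had opposite signs, and they lay above every reporter on 0 and 5 of 9 arrays. These genes were singled out after their values were seen, as partners of CHL1.

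Over the 7 probe sets, no contrast gave a call with limma after adjustment. For fertilized eggs against eggs, 0 of 7 were called (0.042% of all probe sets tested, 0.0385% as lower and 0.0035% as higher), 1 had an unadjusted p under 0.05 (8.9% of all), and 2 lay with every fertilized egg array below every egg array (11.1% of all) and 0 with every one above (13.9% of all). For zygotes against eggs, 0 of 7 were called (0.0699% of all), 3 had an unadjusted p under 0.05 (16% of all), and 2 lay with every zygote array below every egg array (8.96% of all) and 0 with every one above (13.4% of all). For zygotes against fertilized eggs, 0 of 7 were called (0% of all) and 0 had an unadjusted p under 0.05 (10.6% of all). None lay apart there, where 6.37% of all probe sets had every zygote array below and 6.41% every zygote array above. The moderated F test over the stages called 0 of 7 (0.0629% of all), and 2 (LIR1 and the dimmer CAB2R) had an unadjusted p under 0.05 (13.6% of all). No probe set had all 6 later arrays above the eggs (4.52% of all). The adjusted p of the F test was 0.231 for LIR1, 0.409 and 0.343 for CAB2R, and 0.520 or more for the rest.

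The estimates leaned below 0. Of the 7 probe sets, 6 lay below 0 for fertilized eggs against eggs with a median of -0.45, 6 for zygotes against fertilized eggs with a median of -0.48, and 7 for zygotes against eggs with a median of -0.55. Over all probe sets tested, the medians were 0.06, 0.02 and 0.05, and 53.4%, 51.3% and 52.3% lay above 0. The median rice signal was 36.5 to 50.9 on egg, 47.3 to 95.4 on fertilized egg and 54.0 to 218 on zygote arrays. The trimmed mean was 500 on all, and the part of this shift in the lean was not tested. Zygote replicate 2 was the lowest array for both CAB2R probe sets, PETE and CHL1, but not for LIR1 or FNR. The contrasts share samples, and 2 of the 5 genes count 2 times in these 7.

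**Figure D3:**
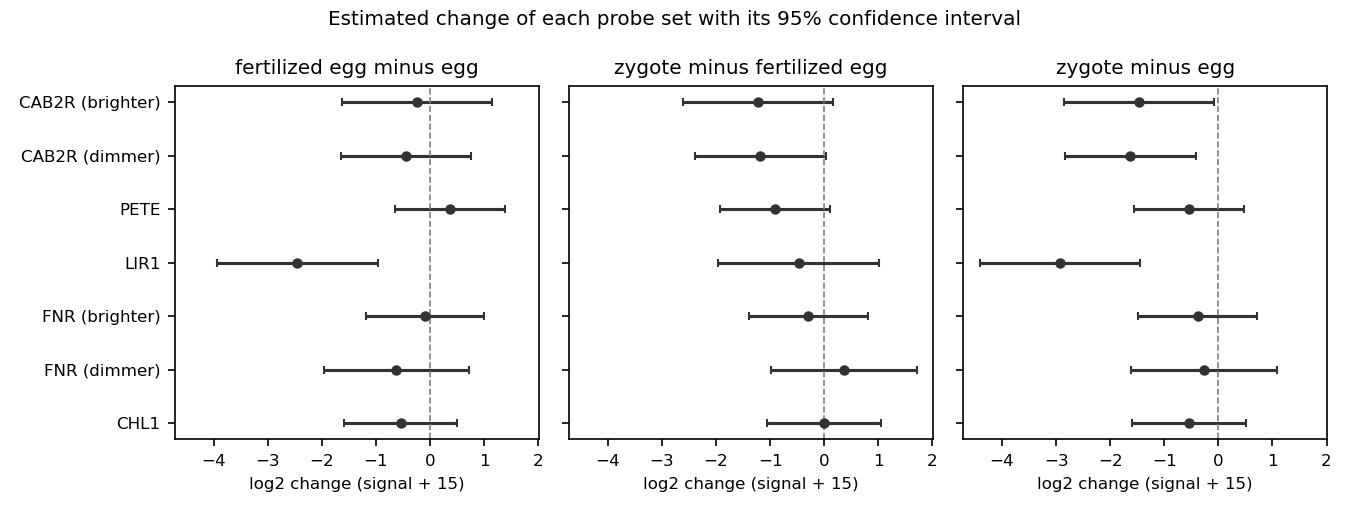
Estimated log2 change of each of the 7 probe sets in the 3 contrasts (points, on log2(signal + 15)) with the 95% confidence interval from limma. The interval of LIR1 lies below 0 against eggs, from -3.94 to -0.97 in fertilized eggs and from -4.41 to -1.45 in zygotes, and the intervals of FNR and CHL1 include 0 throughout.

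Spread within a stage differed between stages. On the log2 scale, the SD of the 7 probe sets was 0.28 to 0.53 in eggs, 0.22 to 1.00 among fertilized eggs and 0.61 to 1.76 among zygotes. The 2 CAB2R probe sets moved together over the 9 arrays, with a Pearson correlation of 0.96, or 0.88 without zygote replicate 2. Those of FNR correlated at 0.68, or 0.67 without it. Between genes, CAB2R and PETE correlated at 0.84, CAB2R and CHL1 at 0.68, and LIR1 and CHL1 at 0.65, whereas FNR correlated at -0.53 with PETE and at -0.05 with LIR1. These correlations are descriptions over 9 arrays that share their scaling and the low zygote replicate 2.

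Genes with the most similar profiles were sought among 93 probe sets of other genes with an informative symbol, by the correlation of log2(signal + 15) over the 9 arrays. For LIR1 these were IRX14 (0.81), NCL1 (0.80) and TPR3 (0.78), and they kept 0.82, 0.84 and 0.75 without zygote replicate 2. For CHL1 they were CPK7 (0.92), XAT2 (0.90) and P5CS1 (0.88), with 0.86, 0.82 and 0.77 without it. For FNR they were CRO1 (0.67), MYBS2 (0.62) and cob (0.55), with 0.65, 0.72 and 0.61. The likeness for CAB2R and PETE rested more on zygote replicate 2. PRX112 (0.99), CWZF7 (0.95) and OsSPO11B (0.93) were nearest to CAB2R, with 0.83, 0.24 and 0.05 without that replicate. XAT2 (0.85), CWZF7 (0.84) and OsSPO11B (0.84) were nearest to PETE, with 0.55, 0.38 and 0.37 without it.

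Beside the 5 genes, a list of photosynthesis, chlorophyll and light-signalling genes held 30 other genes with 48 probe sets, of which 35 passed the filter on low values. None of the 35 was called by limma in any contrast. For fertilized eggs against eggs, 16 lay above 0 and 19 below, with a median of -0.13, and 2 had an unadjusted p under 0.05. For zygotes against eggs the split was also 16 and 19, with a median of -0.18, and 10 had an unadjusted p under 0.05. For zygotes against fertilized eggs, 18 lay above 0 and 17 below, with a median of 0.03, and 3 had an unadjusted p under 0.05. Over all probe sets tested, the share with an unadjusted p under 0.05 was 8.9%, 16% and 10.6% for these contrasts in the same order.

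Light-harvesting and photosystem genes other than CAB2R had moderate or low signals. LHCP, a light-harvesting protein, averaged 682 ± 249 in eggs (SD, n = 3 at each stage), 621 ± 219 in fertilized eggs and 714 ± 141 in zygotes, without the low zygote replicate 2 of CAB2R. PSAG, a photosystem I subunit, averaged 651 ± 271, 792 ± 246 and 602 ± 288 at the same stages. PSAH, another photosystem I subunit, read 201, 613 and 368 in zygotes, against 74.9, 131 and 104 in fertilized eggs. All zygote values of PSAH lay above those of both earlier stages. Over all probe sets, 6.41% had every zygote array above the fertilized eggs and 13.4% above the eggs. The PSAH difference from fertilized eggs was 1.69 ± 0.56 (limma adjusted p = 0.365). PSAH lay above every reporter on 4 of 9 arrays, and above 63, 62 and 63 of the 64 reporters in zygotes. The size of its difference is thus limited by the background. PSB28, an assembly factor of photosystem II, averaged 113 ± 24.7, 134 ± 47.4 and 96.9 ± 92.3.

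In electron transport and ATP synthesis, the plastid-encoded atpI, a subunit of the ATP synthase, was bright, at 25451 ± 2144 in eggs, 25821 ± 5969 in fertilized eggs and 27257 ± 9001 in zygotes. Both probe sets annotated as atpB are paired by the annotation with a nuclear gene, on chromosome 5. Whether they read a photosynthetic gene is thus not known here, though they are counted in the list. The brighter one averaged 12066 ± 2004, 10994 ± 4302 and 13221 ± 5206. The dimmer atpB probe set did not share this profile, with -2.21 ± 0.65 for zygotes against eggs (limma adjusted p = 0.217), though it lay above only 50, 19 and 28 of the 64 reporters in zygotes. With array weights it passed the F test (limma adjusted p = 0.0304), as did 5.49% of all probe sets.

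Carbon fixation genes gave 7 probe sets above 0 and 1 below for fertilized eggs against eggs, with a median of 0.77, and no call. For zygotes against fertilized eggs 3 lay above 0 and 5 below (median -0.49), and for zygotes against eggs 5 above and 3 below (median 0.38). Of these 8 probe sets, 3 belong to rca and 3 to RBCS. The brightest probe set of the Rubisco activase gene rca averaged 839 ± 161 in fertilized eggs and 394 ± 134 in zygotes, against 495 ± 236 in eggs. In order of brightness, the 3 kept rca probe sets gave 0.83, 0.54 and -0.32 for fertilized eggs against eggs. For zygotes against eggs they gave -0.28, -0.97 and -2.01. The brightest probe set of RBCS, the Rubisco small subunit, averaged 275 ± 86.7 in fertilized eggs and 211 ± 132 in zygotes, against 142 ± 49.3 in eggs. FBPase, fructose bisphosphatase, read 61.1, 57.0 and 146 in fertilized eggs and 26.8, 224 and 19.8 in zygotes, against 39.0, 38.8 and 37.2 in eggs. It lay below the highest reporter on every array, and zygote replicates 1 and 3 lay below the eggs. The leaf marker sum given above rests on rca and RBCS as well.

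Among genes of chlorophyll synthesis and breakdown, 6 of 10 probe sets lay below 0 for fertilized eggs against eggs (median -0.64) and 8 of 10 for zygotes against eggs (median -0.30). Over all probe sets tested, 53.4% and 52.3% lay above 0 in these contrasts, with medians of 0.06 and 0.05. SGR, which removes magnesium from chlorophyll, averaged 2184 ± 2057 in eggs, 2680 ± 538 in fertilized eggs and 1362 ± 273 in zygotes. CHLG, chlorophyll synthase, averaged 1459 ± 306, 969 ± 431 and 1457 ± 972. The brighter probe set of NOL, a chlorophyll b reductase, read 293, 462 and 297 in fertilized eggs and 496, 144 and 201 in zygotes, against 967, 941 and 1227 in eggs. All 6 later arrays thus lay below the 3 egg arrays, as for LIR1 and for 3.71% of all probe sets tested. In the list, the brighter CHLH, the dimmer atpB and the dimmer PHYA probe sets were also lower on all 6 later arrays. NOL lay above 63 or 64 of the reporters on 7 arrays, 40 in zygote replicate 2 and 61 in zygote replicate 3. Its difference was -1.56 ± 0.48 in fertilized eggs against eggs (limma adjusted p = 0.404) and -2.02 ± 0.48 in zygotes against eggs (adjusted p = 0.172).

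With array weights, NOL fell by 1.45 ± 0.31 in fertilized eggs against eggs (limma adjusted p = 0.0199). In zygotes against eggs it fell by 2.06 ± 0.43 (adjusted p = 0.0341). It was the 1 of 35 list probe sets called by that fit in each of these contrasts, where 4.36% and 1.99% of all probe sets were called. NYC1, the other chlorophyll b reductase, read 170, 195 and 17.0 in fertilized eggs and 130, 44.1 and 326 in zygotes, against 443, 628 and 395 in eggs. All 6 later arrays again lay below the eggs, as for 3.71% of all probe sets tested (limma adjusted p = 0.475 and 0.304 for fertilized eggs and zygotes). In fertilized egg replicate 3 and zygote replicate 2 it lay above 26 of the 64 reporters each, so the size of the difference is limited by the background. For NOL and NYC1, as for LIR1, the part of the spike ratio in the result was not tested. NOL was named because it passed with array weights, and NYC1 because of its values, both after the results were known.

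**Figure D4:**
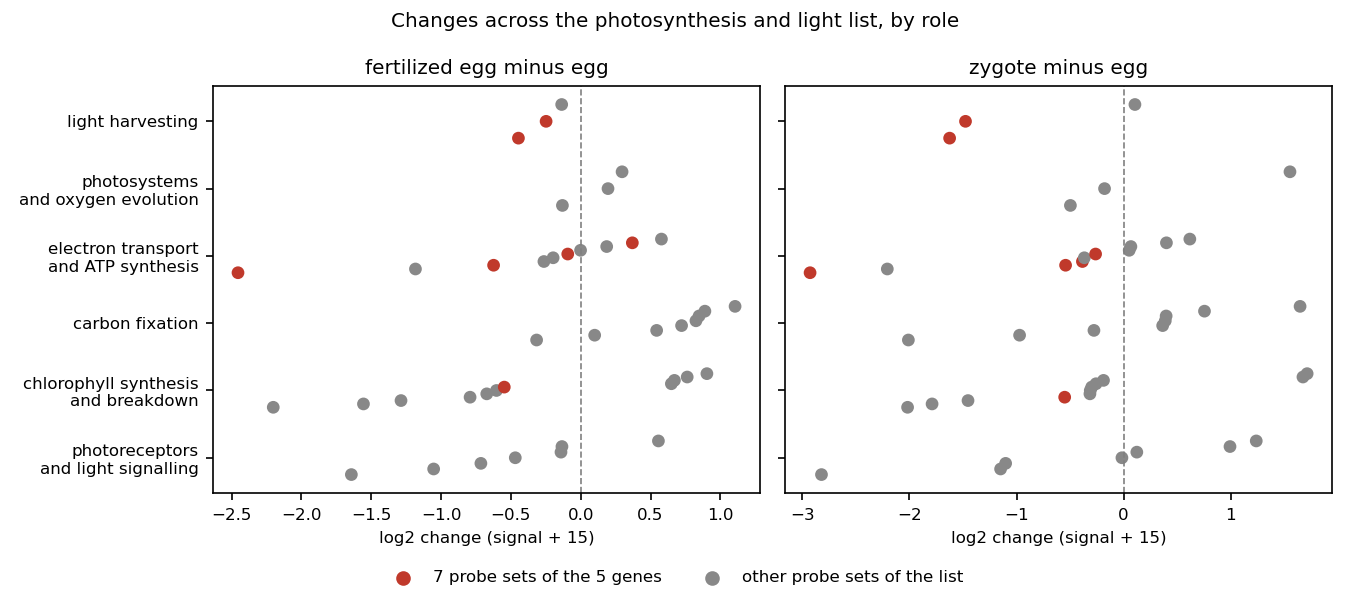
Log2 change (on log2(signal + 15)) of each kept probe set of the photosynthesis and light list by role, for fertilized egg minus egg and zygote minus egg. LIR1 is the lowest point of electron transport at -2.45 and -2.93. In the left panel 7 of 8 carbon fixation probe sets lie above 0, as do 53.4% of all probe sets tested.

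Of the photoreceptor genes, PHYA and PhyB, which encode red and far-red light receptors, were bright. The brighter PHYA probe set averaged 5848 ± 2243 in fertilized eggs and 4833 ± 3343 in zygotes, against 9140 ± 945 in eggs. Its difference was -1.15 ± 0.45 for zygotes against eggs (limma adjusted p = 0.268). The dimmer PHYA probe set gave -2.82 ± 1.03 in that contrast (adjusted p = 0.254), and lay above 64, 17 and 61 of the 64 reporters in zygotes. PhyB averaged 5155 ± 2882 and 3029 ± 2861, against 4882 ± 299. Zygote replicate 2 was the lowest of the 9 arrays for the brighter PHYA probe set and for PhyB, at 2084 and 1082. GLK2, a transcription factor of chloroplast development, averaged 747 ± 1037 in zygotes, 99.0 ± 65.2 in fertilized eggs and 98.5 ± 39.5 in eggs, and zygote replicate 2 alone read 1933.

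**Figure D5:**
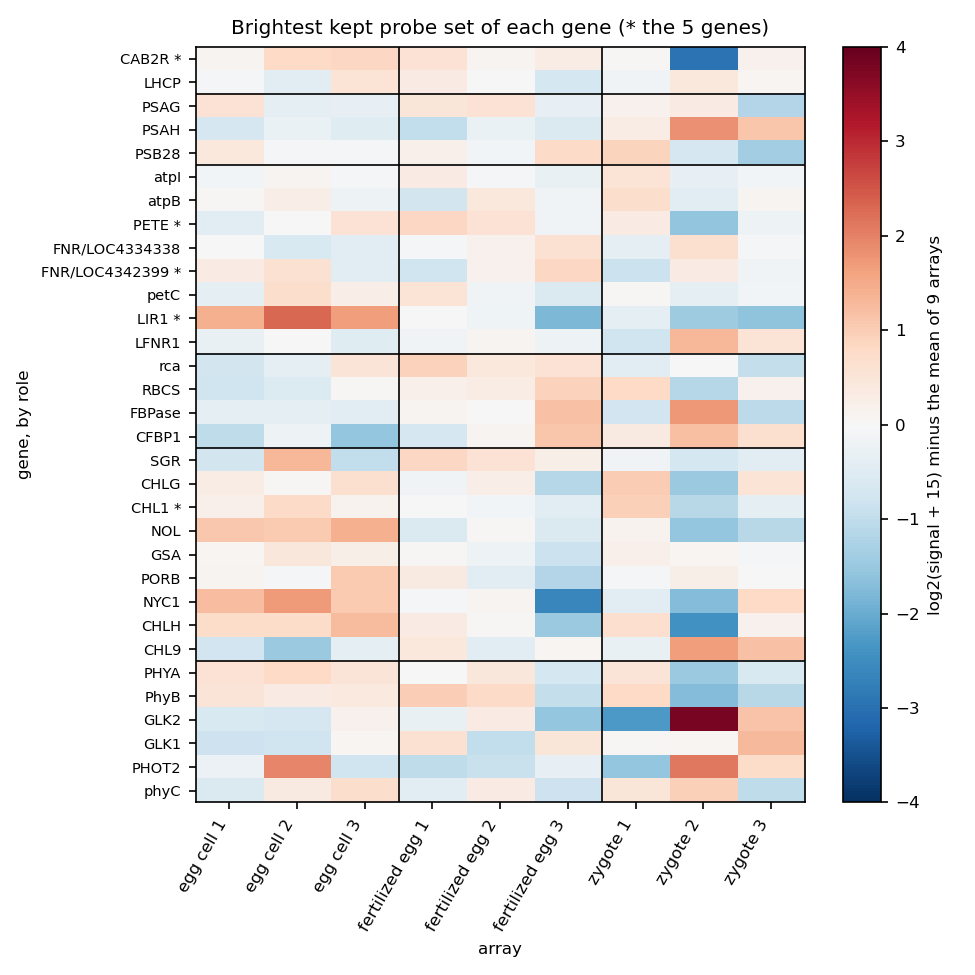
Deviation of log2(signal + 15) from the mean of the 9 arrays for the brightest kept probe set of 32 genes, grouped by role (horizontal lines) and stage (vertical lines); stars mark the 5 genes. LIR1, NOL, NYC1 and CHLH are higher in the 3 egg arrays, and zygote replicate 2 holds the lowest value (CAB2R, -2.94) and the highest (GLK2, 3.79).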

How the data were processed

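Transcripts were measured on 9 Affymetrix rice arrays, 3 a stage. Per the submitters' processing notes, the authors made the deposited intensity values with MAS5. Its version was not given in the sources used here. Genes came from the array's annotation, which gives 1 gene for 22436 probe sets, several for 95 and none for 34663 of the rice probe sets, with symbols from RefSeq (gene table for assembly ASM3414082v1). Coordinates are not used here. Of 57381 probe sets, 123 Affymetrix controls and 64 reporters were left out of the tests.

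From the deposited intensity, log2(signal + 15) was computed (15 is close to the 25th percentile of all values, 14.9), which understates changes of dim probe sets. The 28597 probe sets whose mean was at or above the median were kept, and all 7 probe sets of the 5 genes were among them. A linear model (limma 3.58.1 in R 4.3.3, lmFit and eBayes with trend) was fitted to all 9 arrays, with an F test over the stages and 3 contrasts, Benjamini-Hochberg adjustment over all kept probe sets and a threshold of 0.05. Python 3.11.15, pandas 2.3.3, numpy 2.4.6 and matplotlib 3.10.9 were also used. The fit was tested on simulated data.

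Alternatives were offsets of 1 and 100, no filter, quantile normalization, array weights, no trend, the replicate number as a block, only the 2 stages compared and each array left out. Correlations without zygote replicate 2 were added after seeing the data. Same-numbered samples of different stages correlated at -0.22 to 0.14 in their deviations from the stage means, and differently numbered ones at -0.33 to 0.30, so the numbers were not taken to pair samples.

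The members and lists were chosen with earlier results of these data known. Named genes are the 5 genes, list genes past the threshold, the 3 brightest genes of each role in the list, and for each of the 5 genes the 3 others most alike in profile; other names are said to be singled out. A cystatin that shares the name CP1 was left out of the anther list.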

Additional observations from a re-analysis of the deposited data

How the results depend on the processing

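Of 357 comparisons of the 21 gene contrasts with their value under 17 alternatives, 341 kept their direction and side of the threshold, 3 passed the threshold in addition (LIR1 in both contrasts with egg under array weights, and in zygotes against eggs without zygote replicate 1), 13 reversed and 0 lost a call. LIR1 stayed below 0 against eggs in 34 of 34 and the CAB2R zygote contrasts in 68 of 68. CHL1 in zygotes against fertilized eggs came to 0.020 with an offset of 100 and 0.010 with array weights, and to -0.57 to 0.47 when each array was left out. Over the same omissions FNR ranged from -0.47 to 0.34 (brighter, fertilized eggs against eggs), -0.72 to 0.085 (brighter, zygotes against fertilized eggs), -0.67 to 0.47 (dimmer, zygotes against eggs) and -0.044 to 1.09 (dimmer, zygotes against fertilized eggs), and PETE in zygotes against eggs from -0.95 to 0.0016. Counts of called probe sets over all genes moved more. Against main counts of 12 (fertilized eggs against eggs), 20 (zygotes against eggs) and 18 (F test), array weights gave 1248, 568 and 1569, with 1 probe set of the 5 genes in each, quantile normalization 7, 9 and 5, and no trend 0, 0 and 0. An offset of 1 gave 13 for zygotes against eggs, an offset of 100 gave 20 for fertilized eggs against eggs and 28 by the F test, and no filter 30 by the F test. Only the 2 stages compared gave 155 for fertilized eggs against eggs and 2 for zygotes against eggs. With the replicate block the counts were 8, 8 and 6, and the adjusted p of LIR1 was 0.414 and 0.201 against eggs; the samples share only a number. Leaving out each array gave 1 to 67, 0 to 792 and 0 to 121 calls, and 0 to 6 for zygotes against fertilized eggs, where the main count was 0; the 792 came without zygote replicate 1, and members called in zygotes against eggs were 0 to 1. Where 1 array is left out, limma pools the spread over the stages. The cause of these shifts was not tested. Signal over background limits LIR1, above all reporters on 3 of 9 arrays, and FNR (dimmer), on 6 of 9; the other probe sets were above all on 8 of 9.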
